A study of Mus musculus with 30 samples.

Results

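Nos2, Arg1, Mrc1, Chil3, Ptgs2, Acod1 and Sod2 are 7 genes by which the activation state of macrophages is commonly read. They were followed through all 5 deposited expression tables, and they are 7 of the 45706 genes listed there. The members are a named list, matched from Ensembl identifiers to symbols with the GENCODE M21 annotation; the rule sets no threshold on a measured value. All 7 were found. Levels are in TPM, transcript abundance per gene length as a share of the library. For testing, a gene had to average 1 TPM or more over the 30 libraries; 6 of the 7 did, and Chil3 did not.

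The libraries came from osteoclast cultures of C57BL/6J mice. Bone marrow-derived macrophages were grown on bone slices with M-CSF at 25 ng/ml and RANKL at 100 ng/ml, the cytokines that drive macrophages to fuse into osteoclasts, and messenger RNA was sequenced. In the series, wild-type mice were compared across ages, and with mice that lack Terc, the RNA template of telomerase. There were 10 groups of 3 libraries. Cultures stopped at 2 days came from wild-type mice of 6 and 20 months. Cultures kept until large multinucleated cells were seen, called large cells below, came from wild-type mice of 1, 6 and 20 months and from Terc-/- mice of 1 and 6 months. A further 9 large-cell libraries carry an added mark in their titles: "gaiwei" for wild type at 1 month, and "519" for Terc-/- at 1 and at 6 months. The labels do not say what these marks mean, how many mice stand behind a group, or whether libraries of a group came from separate cultures, so the spread between libraries may be technical. No cells were isolated after culture, and a change in a cell type's share cannot be told apart from a change in RNA per cell.

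Some libraries did not match what their labels lead a reader to look for. Osteoclast markers (8 genes, among them Acp5 and Ctsk) summed to 4531 to 27774 TPM in the 15 unmarked large-cell libraries, to 283 to 739 TPM in the 6 libraries of 2 days, and to 644 to 2131 TPM in the 9 marked libraries, although those are labelled as large cells. Ctsk, the osteoclast collagenase, ran from 23.5 to 154 TPM in the marked libraries and from 1499 to 11089 TPM in the unmarked large cells. Macrophage markers (8 genes) summed to 15662 to 71647 TPM over all libraries and differed between groups, as given beside the comparisons. Replicate 2 of wild-type large cells at 6 months resembled its own group least, at a mean r of 0.909. The 3 unmarked wild-type libraries at 1 month were the only ones with Xist above 1 TPM (46.6 to 84.1) and held no Eif2s3y, the pattern of female cells, so each comparison with that group also sets female-pattern against male-pattern libraries. Eif2s3y was 12.1 to 19.2 TPM in the Terc-/- libraries of 1 month, marked or not, and 40.8 to 82 TPM in the remaining libraries. The Terc-/- comparisons between ages thus differ in this level too, and its part was not tested. Terc was listed at 0 in all 12 Terc-/- libraries and in 15 of 18 wild-type libraries, so its level checks no label here. The tables hold no read counts, and the depth behind each value is unknown.

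Macrophages answer bacterial products and interferon-gamma with a classical programme, and interleukin-4 and related cues with an alternative programme. Nos2 (inducible nitric oxide synthase) and Arg1 (arginase 1) use the same substrate, arginine, to make nitric oxide or ornithine. Acod1 makes itaconate from a citric acid cycle intermediate, Sod2 is the superoxide dismutase of mitochondria, and Ptgs2 (cyclooxygenase 2) starts prostaglandin synthesis. Acod1, Sod2 and Ptgs2 are induced in classical activation, in large part through NF-kappaB. Mrc1 is the mannose receptor and Chil3 (Ym1) a secreted chitinase-like protein, and both are used with Arg1 as signs of alternative activation. In bone, prostaglandin E2 and nitric oxide are known to act on osteoclast formation and resorption.

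The genes lie on 7 chromosomes (GENCODE M21, build GRCm38, whole genes with exons, introns and untranslated regions). Nos2 is at chr11:78920787-78960254 on the plus strand, Arg1 at chr10:24915221-24927484 on the minus strand, and Acod1 at chr14:103046977-103056573 on the plus strand. Sod2 is at chr17:13006846-13040063 and Ptgs2 at chr1:150100031-150108227, both on the plus strand. Mrc1 is at chr2:14229392-14332057 on the plus strand and Chil3 at chr3:106147554-106167564 on the minus strand. No other annotated gene overlaps them apart from the microRNA gene Mir511 inside Mrc1, on the same strand.

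The RefSeq promoter table (GRCm38.p6) holds 5 of the 7 genes. Nos2 and Arg1 are missing from it. The 250 bases before the RefSeq start are shown for 4 genes: Acod1 and Sod2, which followed each other most closely over the libraries, Ptgs2, which did not follow them, and Mrc1, whose correlation with Sod2 was the lowest of all pairs. Each runs 5′ to 3′ on the plus strand, at chr14:103046762-103047011 for Acod1, chr17:13007589-13007838 for Sod2, chr1:150099781-150100030 for Ptgs2 and chr2:14229164-14229413 for Mrc1. The RefSeq starts of Sod2, Acod1 and Mrc1 lie downstream of the GENCODE gene starts, so these windows reach into the annotated genes. Capitals mark matches to the motifs searched.
Acod1: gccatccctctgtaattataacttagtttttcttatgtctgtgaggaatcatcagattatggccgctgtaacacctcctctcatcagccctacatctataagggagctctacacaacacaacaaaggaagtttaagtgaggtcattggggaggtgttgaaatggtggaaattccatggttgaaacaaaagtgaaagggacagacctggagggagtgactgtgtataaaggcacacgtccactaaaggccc
Sod2: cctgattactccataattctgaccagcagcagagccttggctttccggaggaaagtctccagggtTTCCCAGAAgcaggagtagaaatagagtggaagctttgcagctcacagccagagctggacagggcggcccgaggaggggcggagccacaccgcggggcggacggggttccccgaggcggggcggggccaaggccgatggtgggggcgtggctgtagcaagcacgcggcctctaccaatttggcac
Ptgs2: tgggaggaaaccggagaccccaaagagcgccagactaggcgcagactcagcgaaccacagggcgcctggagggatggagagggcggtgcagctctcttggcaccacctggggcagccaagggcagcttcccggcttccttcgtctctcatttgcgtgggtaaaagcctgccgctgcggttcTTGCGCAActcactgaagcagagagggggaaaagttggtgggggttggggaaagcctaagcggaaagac
Mrc1: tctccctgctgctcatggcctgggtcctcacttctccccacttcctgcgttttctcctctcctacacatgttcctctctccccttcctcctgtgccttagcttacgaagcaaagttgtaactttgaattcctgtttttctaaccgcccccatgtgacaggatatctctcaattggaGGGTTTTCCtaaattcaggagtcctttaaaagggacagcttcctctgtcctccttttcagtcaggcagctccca
The search covered 7 motifs on both strands. The share of all 32851 RefSeq windows with a match was 4.98% for the first kappaB form (GGGNNTTCC), 13.3% for a second, looser kappaB form (GGGNNTNTC), 6.75% for AP-1 (TGANTCA) and 1.55% for CRE (TGACGTCA). It was 9.56% for C/EBP (TTGCNNAA), 7.02% for STAT (TTCNNNGAA) and 7.13% for the interferon-stimulated response element (GAAANNGAA). The STAT and interferon letters can overlap. Ptgs2 holds a C/EBP match 69 to 62 bases before its start, Sod2 a STAT match 185 to 177 bases before it, and Mrc1 a first-form kappaB match 74 to 66 bases before it. The Acod1 window holds none of these letters. A match is a string of letters and not a measured site.

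Nos2 spanned the widest range of the 7 genes apart from Chil3, which was listed at 0 in 11 libraries. In wild-type large cells it measured 5.02, 7.89 and 4.35 TPM at 1 month, 3.11, 1.31 and 7.43 TPM at 6 months, and 25.5, 7.19 and 9.76 TPM at 20 months. In unmarked Terc-/- large cells it measured 21.9, 12.2 and 12.3 TPM at 1 month and 36.5, 34.3 and 98.2 TPM at 6 months. The Terc-/- libraries of 1 month overlapped those of wild type at 20 months, whereas those of 6 months lay above them. Both Terc-/- groups lay above all unmarked wild-type libraries of 1 and 6 months. The cultures of 2 days held 6.67, 4.89 and 3.88 TPM at 6 months and 4.88, 7.69 and 7.76 TPM at 20 months, as low as the young wild-type large cells. The gaiwei-marked wild-type libraries held 161, 109 and 76.7 TPM. The 519-marked Terc-/- libraries held 30.3, 48.6 and 45.7 TPM at 1 month and 250, 401 and 282 TPM at 6 months. The latter group was the highest of the 10, with no overlap with the next (gaiwei). From the fifth group downwards, each group overlapped its neighbour in the order of means: unmarked Terc-/- at 1 month, then wild type at 20 months, 20 months at 2 days, 1 month, 6 months at 2 days and 6 months.

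Arg1 was among the most abundant transcripts of the dataset. It ranked 28th to 31st of all genes in the 519-marked libraries at 6 months and 31st to 43rd in the 2-day cultures at 20 months. The 2-day cultures held 2111, 2210 and 2381 TPM at 6 months and 2752, 2903 and 3150 TPM at 20 months. Wild-type large cells held 407, 637 and 438 TPM at 1 month, 525, 433 and 955 TPM at 6 months, and 1350, 957 and 1088 TPM at 20 months. All 9 of these libraries lay below all 6 libraries of 2 days. Unmarked Terc-/- large cells at 1 month held the least, 46.5, 31.9 and 116 TPM. At 6 months they held 298, 316 and 655 TPM, above the younger group and overlapping wild type at 1 and 6 months. The marked libraries held 2652, 2752 and 2664 TPM with the gaiwei mark and 3302, 3428 and 3023 TPM with the 519 mark at 6 months. These lay within or above the range of the 2-day cultures. With the 519 mark at 1 month they held 1160, 1101 and 1279 TPM, below all 2-day cultures and overlapping wild-type large cells at 20 months. In the order of means the top 3 groups (519 at 6 months, 2 days at 20 months, gaiwei) overlapped each neighbour, whereas unmarked Terc-/- at 1 month stood below every other group.

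Because Nos2 and Arg1 draw on the same arginine, the TPM of Arg1 per TPM of Nos2 was taken in each library. It ran from 317 to 613 in the 2-day cultures and from 52.9 to 331 in wild-type large cells. In unmarked Terc-/- large cells it was 2.12 to 9.42 at 1 month and 6.68 to 9.22 at 6 months, below all unmarked wild-type libraries. In marked libraries it was 16.5 to 34.7 with the gaiwei mark, 22.7 to 38.3 with the 519 mark at 1 month and 8.54 to 13.2 with the 519 mark at 6 months. A low ratio therefore stood for different levels. Unmarked Terc-/- large cells at 1 month had little Arg1, while the gaiwei-marked libraries and the 519-marked ones of 6 months had much of both transcripts. Between these lay the 519-marked libraries of 1 month (Nos2 30.3 to 48.6 TPM, Arg1 1101 to 1279 TPM). Unmarked Terc-/- at 6 months held Nos2 at 34.3 to 98.2 TPM and Arg1 at 298 to 655 TPM.

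**Figure D1:**
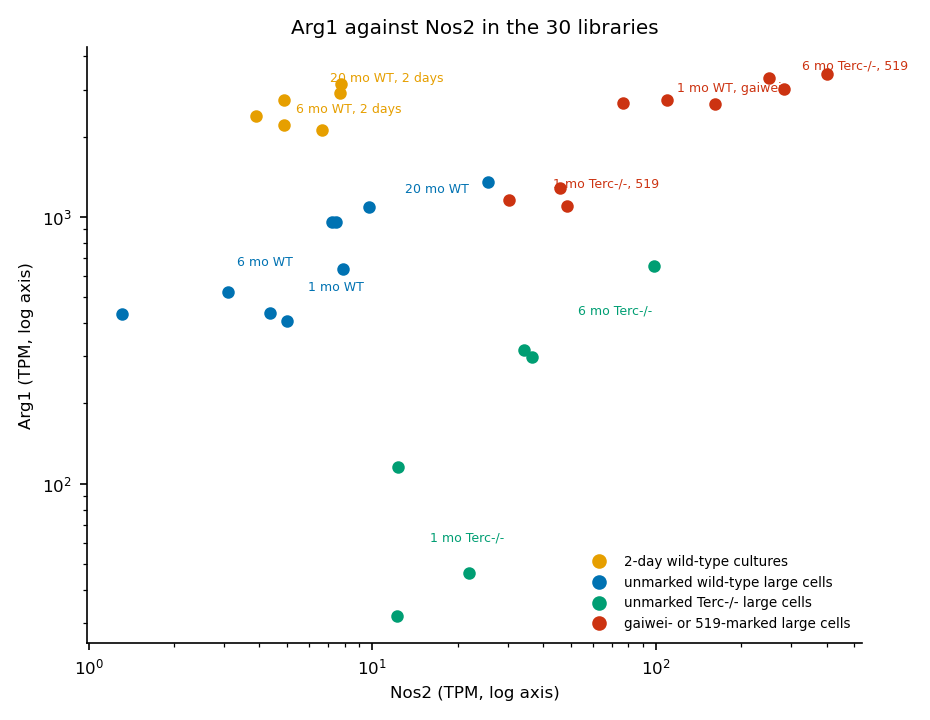
Arg1 against Nos2 in each of the 30 libraries, both in TPM on log axes; points are libraries, colours give the kind of culture and text names the groups. The 2-day cultures sit at the upper left (Arg1 2111 to 3150, Nos2 3.88 to 7.76), the unmarked Terc-/- libraries of 1 month at the bottom (Arg1 31.9 to 116) and the 519-marked libraries of 6 months at the upper right (Arg1 3023 to 3428, Nos2 250 to 401).

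Acod1 and Sod2 separated the 9 marked libraries from all others. Acod1 held 474, 692 and 498 TPM with the gaiwei mark, 346, 285 and 304 TPM with the 519 mark at 1 month and 864, 989 and 730 TPM with the 519 mark at 6 months. The highest of the other 21 libraries was 165 TPM, in unmarked Terc-/- large cells at 6 months (121, 113 and 165 TPM). Unmarked Terc-/- at 1 month held 57.1, 46.9 and 65.6 TPM, and wild-type large cells held 71.9, 92.2 and 63.3 TPM at 1 month, 74.5, 40.3 and 63.6 TPM at 6 months and 59.5, 6.75 and 33 TPM at 20 months. These 4 groups overlapped each neighbour. Replicate 3 of wild type at 20 months, at 6.75 TPM, was the lowest library. The 2-day cultures held 98, 100 and 53.9 TPM at 6 months and 118, 116 and 144 TPM at 20 months.

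Sod2 held 206, 288 and 210 TPM with the gaiwei mark, 197, 193 and 187 TPM with the 519 mark at 1 month and 267, 294 and 282 TPM with the 519 mark at 6 months. Unmarked Terc-/- large cells held 63.2, 65.3 and 63.2 TPM at 1 month and 85.5, 75.4 and 73.2 TPM at 6 months. Both Terc-/- groups lay above all 15 wild-type libraries without a mark. Those held 49.5, 46.2 and 43.8 TPM at 1 month, 41.5, 38 and 35.7 TPM at 6 months and 35.8, 27.6 and 32.9 TPM at 20 months as large cells, and 50.2, 51.3 and 36.4 TPM at 6 months and 50, 45.8 and 58.5 TPM at 20 months after 2 days. From the sixth group down, each overlapped its neighbour in the order of means.

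Ptgs2 had its highest level in the 2-day cultures of 6 months, at 1046, 1213 and 1080 TPM. Those of 20 months held 613, 546 and 544 TPM. Wild-type large cells held 144, 396 and 393 TPM at 1 month, 129, 62 and 189 TPM at 6 months and 96.8, 90.5 and 95.4 TPM at 20 months. Unmarked Terc-/- large cells held 26, 20.8 and 55.8 TPM at 1 month, the lowest group with no overlap with any other, and 65.2, 116 and 202 TPM at 6 months. The gaiwei-marked libraries (324, 311 and 212 TPM) fell within the range of their unmarked group. The 519-marked libraries held 84.6, 78.8 and 97.4 TPM at 1 month and 538, 604 and 582 TPM at 6 months, the latter overlapping the 2-day cultures of 20 months.

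Mrc1 was a low to moderate transcript throughout. It held 38, 43.6 and 50.8 TPM in wild-type large cells at 20 months, above every other library. Wild-type large cells held 6.7, 10.3 and 11.1 TPM at 1 month and 37.2, 9.53 and 11.7 TPM at 6 months, where replicate 1 alone was high. Unmarked Terc-/- large cells held 3.85, 3.25 and 4.76 TPM at 1 month, below every other library, and 16.8, 16.2 and 17 TPM at 6 months. The 2-day cultures held 17.3, 16.4 and 18.1 TPM at 6 months and 19.2, 21.7 and 24.8 TPM at 20 months. The marked libraries held 15.9, 13.8 and 26.1 TPM (gaiwei), 17.7, 12.3 and 15.8 TPM (519 at 1 month) and 15.9, 12.2 and 16.2 TPM (519 at 6 months). From the second to the eighth group in the order of means, each overlapped its neighbour.

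Chil3 exceeded 2 TPM in 1 group only, the 2-day cultures of wild type at 20 months, with 2.08, 5.57 and 2.92 TPM. The 2-day cultures at 6 months held 0.313, 0 and 0.0751 TPM. Replicate 2 with the gaiwei mark held 1.84 TPM beside 0.153 and 0.162 TPM in the others, and no other library exceeded 0.634 TPM. It was listed at 0 in all 3 unmarked Terc-/- libraries at 6 months. A fit without the filter on low values gave a difference of 1.72 ± 0.31 (log2, SE) between 20 and 6 months at 2 days (limma, adjusted p = 0.000788) and of -1.57 ± 0.31 between large cells and 2 days at 20 months (adjusted p = 0.000537). S100a9, a neutrophil transcript, was high in the same group, at 18.3 to 60.2 TPM (median 19.2), and at most 2.65 TPM in every other library. As a set, 10 neutrophil markers were not highest there. They summed to 44.6 to 90.1 TPM in this group, and to 385 to 473 TPM with the gaiwei mark. With the 519 mark they summed to 131 to 167 TPM at 1 month and 539 to 649 TPM at 6 months. The part of S100a9 or of the set in the Chil3 values was not tested.

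**Figure D2:**
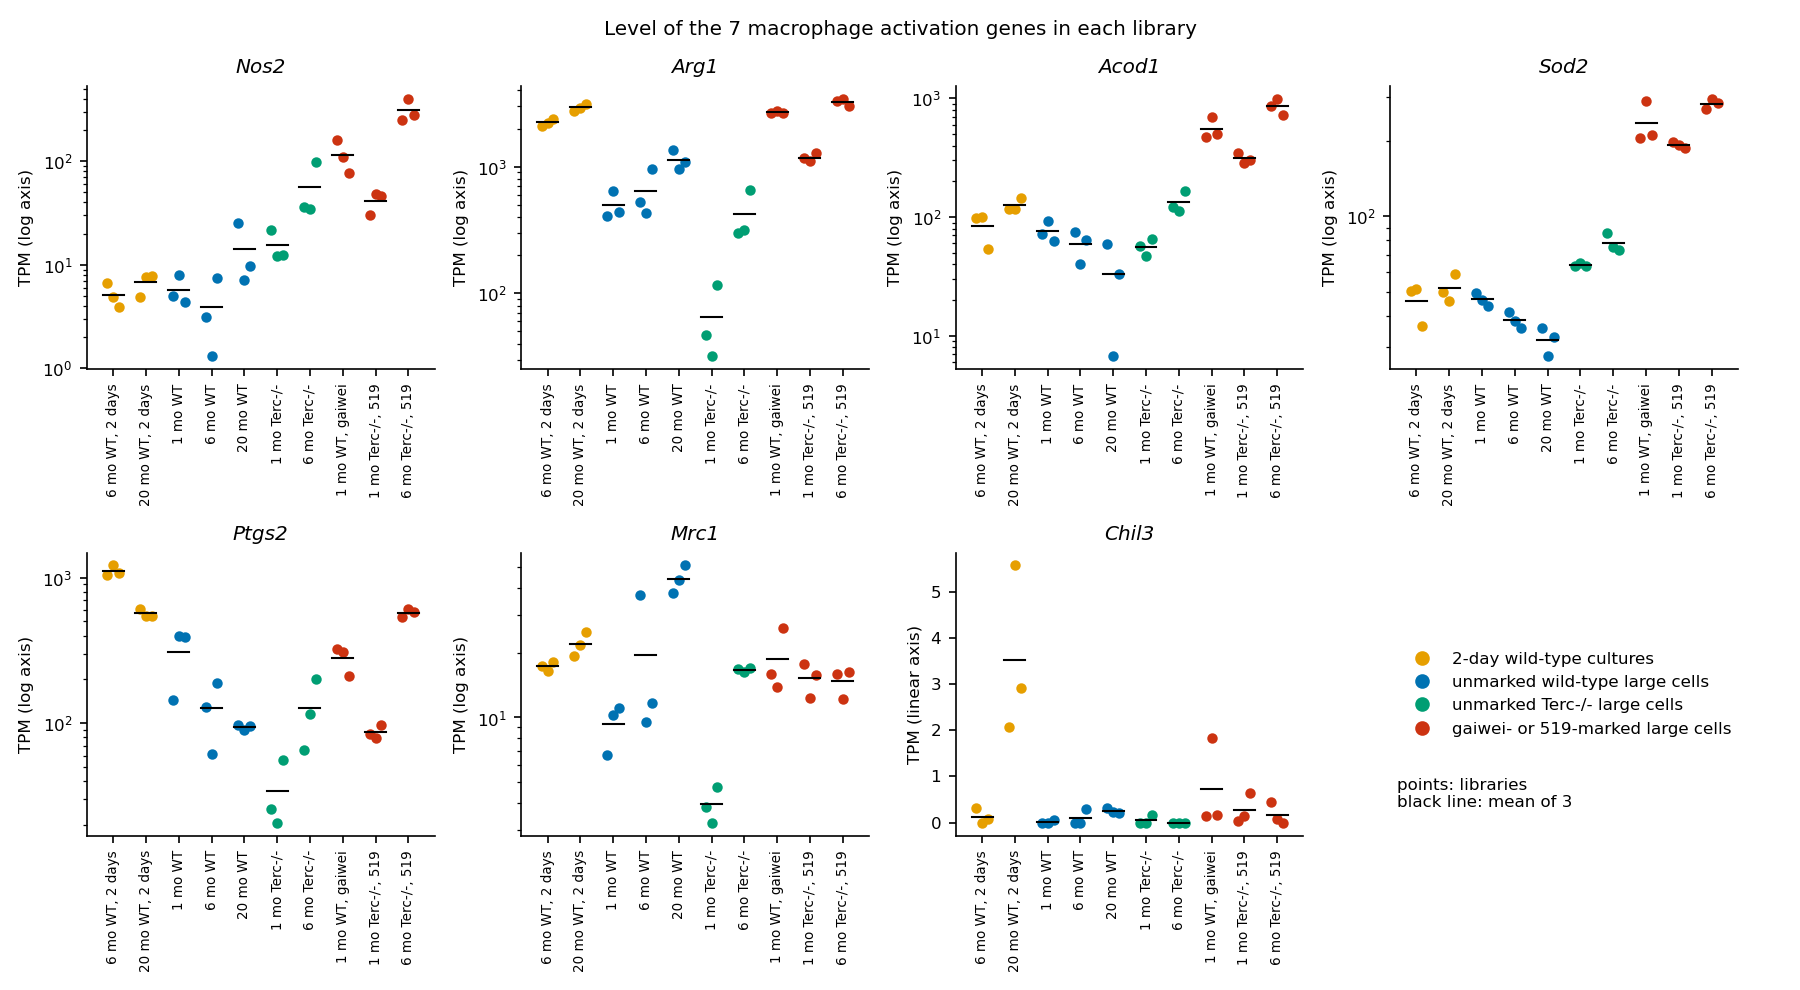
TPM of each of the 7 genes in every library (points) of the 10 groups, with the mean of the 3 libraries as a black line; axes are logarithmic except for Chil3. Acod1 and Sod2 are highest in the 9 marked libraries, Ptgs2 in the 2-day cultures of 6 months, Mrc1 in wild-type large cells of 20 months and Chil3 in the 2-day cultures of 20 months.

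Differences were tested with limma, a linear model fitted across 12614 genes on log2(scaled TPM + 1), with the Benjamini-Hochberg adjusted p over all those genes and a threshold of 0.05. All changes below are on that log2 scale with their SE, and each group has 3 libraries. Ratios of means and overlaps of groups use TPM as deposited, without scaling between libraries, so a ratio can differ from its log2 change. The pseudocount of 1 slightly understates changes of low genes such as Mrc1. Several comparisons share a group and are not independent: unmarked wild type at 1 month serves in 3 of them, and each unmarked Terc-/- group in 3.

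The marked libraries were set against the unmarked large cells of the same genotype and age. With the gaiwei mark, 5 of the 6 genes tested rose and none fell, beside 46.6% of all genes called and 24.7% called higher. Nos2 rose by 4.64 ± 0.45 (adjusted p = 8.97e-09), Acod1 by 3.43 ± 0.42 (3.25e-07), Arg1 by 3.05 ± 0.32 (2.93e-08), Sod2 by 2.87 ± 0.19 (1.95e-11) and Mrc1 by 1.44 ± 0.23 (1.33e-05). Ptgs2 did not pass (0.56 ± 0.35, adjusted p = 0.196), and its libraries overlapped. The median over the 6 genes was 2.96 beside 0.01 over all genes tested.

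With the 519 mark at 1 month all 6 genes tested rose, beside 33.8% of all genes called and 19.1% called higher. Arg1 changed most, by 4.87 ± 0.32 (adjusted p = 3.56e-11). The ratio of its mean TPM, without scaling, was 18.2. Acod1 rose by 2.94 ± 0.42, Mrc1 by 2.17 ± 0.23, Sod2 by 2.06 ± 0.19, Ptgs2 by 1.93 ± 0.35 and Nos2 by 1.87 ± 0.45 (adjusted p = 0.00199). At 6 months 5 rose, beside 28.3% called and 15.3% called higher: Arg1 by 3.34 ± 0.32, Acod1 by 3.0 ± 0.42, Nos2 by 2.89 ± 0.45, Ptgs2 by 2.62 ± 0.35 and Sod2 by 2.14 ± 0.19, all with an adjusted p of 2.04e-05 or less. Mrc1 did not pass at 6 months (0.12 ± 0.23, adjusted p = 0.757), although its TPM in the 3 marked libraries all lay just below those of the unmarked ones. The difference between the ages was tested as an interaction, in which 4.86% of all genes were called and 2.62% called lower. The effect of the mark was smaller at 6 months for Mrc1, by -2.05 ± 0.32 (adjusted p = 0.000418), and for Arg1, by -1.52 ± 0.45 (adjusted p = 0.0497). The Arg1 call was lost without any 1 of 9 of the 12 libraries, where the change ran from -1.60 to -1.13, and also with TPM as deposited (adjusted p = 0.146), a pseudocount of 0.1 (0.0509), no filter (0.0864) or only these 12 libraries (0.0772).

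The scaling between libraries bears on these 3 comparisons. With TPM as deposited the median of all genes moved by -0.50 (gaiwei), -0.41 (519 at 1 month) and -0.27 (519 at 6 months), and higher genes made up 16.4%, 15.4% and 20.5% of calls in place of 52.9%, 56.4% and 54.1%. Every member called in these 3 comparisons was still called higher, while the uncalled values changed sign, to -0.02 for Ptgs2 with the gaiwei mark and to -0.17 for Mrc1 with the 519 mark at 6 months. The summed level of 10 neutrophil markers moved with the marks as well, from 7.58 to 109 TPM in the unmarked large cells to 131 to 649 TPM in the marked ones. Mmp8 made up most of it (127 to 643 TPM in marked libraries), Elane and Retnlg were listed at 0 in every library and S100a9 in 7 of the 9 marked ones. Osteoclast markers fell in the same comparisons, 7, 8 and 7 of 8 genes. Of the stromal markers (7 tested), 5, 3 and 1 fell, and with the gaiwei mark their sum was 179 to 298 TPM against 554 to 2444 TPM. Of all genes, 22%, 14.8% and 13% were called lower in these comparisons. Macrophage markers summed to 42950 to 52649 TPM with the gaiwei mark against 24792 to 30466 TPM, and with the 519 mark to 61799 to 71647 against 39976 to 44170 TPM at 1 month and to 40989 to 47899 against 37293 to 44689 TPM at 6 months. The share of mitochondrial transcripts was 3.2% to 4.33% against 8.25% to 9.42% (gaiwei), 3.7% to 4.29% against 6.93% to 7.22% (519, 1 month) and 3.62% to 4.51% against 5.01% to 6.67% (519, 6 months). Genes at 1 TPM or more numbered 11270 to 11861 in marked libraries and 12105 to 12790 in their unmarked counterparts. The part of these in the results was not tested.

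Large cells were set against cultures of 2 days to follow the genes over the formation of osteoclasts. Arg1 and Ptgs2 fell at both ages. At 6 months Arg1 fell by 1.48 ± 0.32 on the log2 scale (adjusted p = 0.000584) and Ptgs2 fell by 2.86 ± 0.35 (adjusted p = 6.62e-07), and no gene of the 6 rose, beside 49.9% of all genes called and 24.9% called lower. At 20 months 4 fell and 1 rose, beside 36.6% called. Arg1 fell by 1.31 ± 0.32 (adjusted p = 0.00209), Ptgs2 fell by 2.49 ± 0.35 (3.74e-06), Acod1 fell by 2.24 ± 0.42 (0.000147) and Sod2 fell by 0.58 ± 0.19 (0.0181). Mrc1 rose by 1.05 ± 0.23 (adjusted p = 0.00076). Nos2 passed at neither age (-0.19 ± 0.45 and 0.85 ± 0.45).

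The age difference of this step passed the threshold for Acod1 (-2.16 ± 0.59, adjusted p = 0.00919) and Sod2 (-0.74 ± 0.27, adjusted p = 0.0447), beside 25.5% of genes called and 14.3% called lower. Without replicate 3 of the large cells at 20 months the Acod1 values stayed called but were smaller, -1.41 for the fall at 20 months (adjusted p = 0.000388) and -1.33 for the interaction (adjusted p = 0.0128). With only these 12 libraries in the fit neither interaction passed (adjusted p = 0.0955 for Acod1 and 0.111 for Sod2), and with TPM as deposited that of Sod2 did not (-0.42, adjusted p = 0.105). Mrc1 did not pass (0.75 ± 0.32, adjusted p = 0.0865) but was called without replicate 1 of the large cells at 6 months (1.17, adjusted p = 0.000487). For Sod2, the fall at 20 months was not called without replicate 4 of the 2-day cultures (-0.48, adjusted p = 0.0924) or replicate 3 of the large cells (-0.50, adjusted p = 0.0844), and its interaction was lost without any 1 of 6 libraries, where it ran from -0.76 to -0.54. At 6 months Mrc1 was called higher without replicate 4 of the large cells (0.57 ± 0.22, adjusted p = 0.0362). Stromal markers (8 genes) summed to 1687 to 2040 TPM at 2 days and 649 to 1084 TPM in large cells at 6 months, and to 720 to 929 and 3223 to 4157 TPM at 20 months. At 20 months macrophage markers summed to 33332 to 38266 TPM at 2 days and 15662 to 23406 TPM in large cells, and neutrophil markers to 44.6 to 90.1 and 8.45 to 17.5 TPM. At 6 months neutrophil markers summed to 23.4 to 41.3 and 7.58 to 13.8 TPM, while the macrophage sums overlapped. The part of these markers was not tested.

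Age was compared within wild-type cultures of the same kind. At 2 days no gene of the 6 passed between 20 and 6 months (limma), beside 17.5% of all genes called. At an unadjusted p under 0.05 the count was 1, Ptgs2, with a ratio of means of 0.51 (-0.97 ± 0.35, adjusted p = 0.055). The ranges of Ptgs2, Arg1, Mrc1 and Acod1 did not overlap between these ages, 4 of 6 beside 50.8% of all genes tested, although the means of the last 3 differed by 1.5 times or less. A fit on these 6 libraries alone called Ptgs2, Arg1 and Mrc1. That fit called 4689 of the 12614 genes tested, against 2213 in the shared fit. Ptgs2 was also called without replicate 2 of wild-type large cells at 6 months (adjusted p = 0.0398), a library outside the comparison that enters the shared error. Macrophage markers summed to 19922 to 22694 TPM at 6 months and 33332 to 38266 TPM at 20 months in these cultures. Osteoclast markers summed to 283 to 503 and 706 to 739 TPM. The part of both was not tested.

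In wild-type large cells, Mrc1 rose with age in both steps. Between 1 and 6 months it rose by 0.91 ± 0.23 (adjusted p = 0.0127) and Ptgs2 fell by 1.12 ± 0.35 (adjusted p = 0.0429), beside 9.57% of genes called; the libraries of both genes overlapped. The Mrc1 call was lost with TPM as deposited (0.76, adjusted p = 0.131), and its value was 0.49 without replicate 1 at 6 months (adjusted p = 0.0278). With only these 6 libraries neither Mrc1 (adjusted p = 0.776) nor Ptgs2 (adjusted p = 0.686) passed, and without the filter Ptgs2 did not (adjusted p = 0.0752). Neutrophil markers summed to 29.3 to 69.6 TPM at 1 month and 7.58 to 13.8 TPM at 6 months, and their part was not tested. Ptgs2 was not called without replicate 3 or 4 at 1 month (-0.93 and -0.96, adjusted p = 0.184 and 0.166) or replicate 2 at 6 months (-0.89, adjusted p = 0.193). Between 6 and 20 months Mrc1 rose by 1.07 ± 0.23 (adjusted p = 0.00163) and Nos2 by 1.36 ± 0.45 (adjusted p = 0.0272), while Acod1 fell by 1.53 ± 0.42 (adjusted p = 0.00971) and Sod2 fell by 0.57 ± 0.19 (adjusted p = 0.0284), beside 27.6% called. The libraries of Nos2, Acod1 and Sod2 overlapped between these ages. Those of Mrc1 did not, nor did those of Arg1, which was not called (0.57 ± 0.32, adjusted p = 0.168).

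The other calls of the older step rested on single libraries. Nos2 was not called without replicate 1 at 20 months, the library at 25.5 TPM (0.88, adjusted p = 0.169), or without replicate 2 at 6 months (1.05, adjusted p = 0.148). Acod1 was not called without replicate 3 at 20 months (-0.71, adjusted p = 0.0749). Sod2 was not called without replicate 3 (-0.49, adjusted p = 0.106) or 4 (-0.59, adjusted p = 0.0619) at 20 months, or replicate 2 at 6 months (-0.37, adjusted p = 0.178). A fit on the 6 libraries alone called none of the 6 genes (Mrc1 at an adjusted p of 0.242) and 162 genes in all, against 3482 in the shared fit. Without the filter Nos2 (adjusted p = 0.0526) and Sod2 (0.0518) did not pass. With TPM as deposited Sod2 did not (-0.26, adjusted p = 0.131) and Arg1 was called higher (0.90, adjusted p = 0.0442). Stromal markers summed to 649 to 1084 TPM at 6 months and 3223 to 4157 TPM at 20 months, and osteoclast markers to 9328 to 14411 and 17857 to 27774 TPM. The part of both was not tested. Scaling moved the share of higher calls from 41.2% to 71.2% with TPM as deposited, where the median of all genes moved by 0.28.

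In Terc-/- cultures every gene that passed between 1 and 6 months was higher at 6 months. Among unmarked large cells 4 of 6 rose, beside 4.02% of all genes called and 3.0% called higher: Arg1 by 2.80 ± 0.32 (adjusted p = 4.01e-06), Ptgs2 by 1.85 ± 0.35 (0.00183), Mrc1 by 1.84 ± 0.23 (1.52e-05) and Nos2 by 1.67 ± 0.45 (0.0312). All 6 genes had ranges without overlap at the 2 ages, beside 19.8% of all genes tested, including Acod1 (1.21 ± 0.42, adjusted p = 0.118) and Sod2 (0.28 ± 0.19, adjusted p = 0.626), which did not pass. The Nos2 call was lost without replicate 3 or 4 at 1 month (1.57 and 1.5, adjusted p = 0.142 and 0.114) or replicate 4 at 6 months (1.16, adjusted p = 0.34), and without the filter (adjusted p = 0.0598). With only these 6 libraries Nos2 (adjusted p = 0.135) and Ptgs2 (0.119) did not pass, while Acod1 did (0.0237). The number of all genes called was itself unstable here, from 226 without replicate 4 at 6 months to 818 without replicate 2 of wild-type large cells at 6 months, against 507. Stromal markers rose in the same comparison, 5 of 7 tested, from a summed 112 to 208 TPM to 271 to 919 TPM. Neutrophil markers summed to 13.4 to 25.9 TPM at 1 month and 41.4 to 109 TPM at 6 months. The part of both was not tested.

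Among 519-marked libraries 4 rose as well, beside 23.8% called and 12.6% called higher: Nos2 by 2.70 ± 0.45 (adjusted p = 0.000128), Ptgs2 by 2.53 ± 0.35 (1.38e-05), Arg1 by 1.28 ± 0.32 (0.00537) and Acod1 by 1.27 ± 0.42 (0.0288). Mrc1 did not (-0.22 ± 0.23, adjusted p = 0.493). The Acod1 call was lost without any 1 of 5 of the 6 libraries, all but replicate 3 of the older group, with values of 1.14 to 1.31. It was also lost without the filter (adjusted p = 0.0579), while Sod2 (0.36 ± 0.19, adjusted p = 0.158) passed with TPM as deposited (0.55, adjusted p = 0.00638) and with only these 6 libraries (adjusted p = 0.00701). Of the stromal markers 6 of 7 rose here too, from a sum of 78.8 to 98.6 TPM to 276 to 453 TPM. Neutrophil markers summed to 131 to 167 and 539 to 649 TPM and macrophage markers to 61799 to 71647 and 40989 to 47899 TPM at 1 and 6 months. Osteoclast markers summed to 644 to 678 and 1216 to 2131 TPM. Their part was not tested.

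Terc-/- and wild-type large cells without a mark were compared at each age. At 1 month Arg1, Ptgs2 and Mrc1 were lower in Terc-/- and Nos2 was higher, 4 of 6 genes beside 30.9% of all genes called. Ptgs2 fell by 3.10 ± 0.35 (adjusted p = 7.67e-07), with a wild-type mean 9.09 times that of Terc-/-. Arg1 fell by 3.06 ± 0.32 (adjusted p = 2.76e-07) and Mrc1 fell by 1.01 ± 0.23 (adjusted p = 0.00157). Nos2 rose by 1.29 ± 0.45 (adjusted p = 0.0299), a call lost without replicate 1 or 3 of Terc-/- (1.02 and 1.39, adjusted p = 0.141 and 0.0532) or replicate 1 or 4 of wild type (1.33 and 1.08, adjusted p = 0.0506 and 0.122), or without the filter (adjusted p = 0.0609). Sod2 was 0.49 ± 0.19 higher with no overlap (adjusted p = 0.0538), and it was called with TPM as deposited (0.45, adjusted p = 0.0135), without replicate 1 of wild type (0.65, adjusted p = 0.0126) or without replicate 2 of wild type at 6 months (0.49, adjusted p = 0.0201). Other measured values move with this comparison: the wild-type libraries have the female Xist pattern, and their stromal markers summed to 554 to 2444 TPM against 112 to 208 TPM in Terc-/-. Macrophage markers summed to 24792 to 30466 TPM in wild type and 39976 to 44170 TPM in Terc-/-, and neutrophil markers to 29.3 to 69.6 and 13.4 to 25.9 TPM. The part of these was not tested.

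At 6 months the 2 genes that passed were both higher in Terc-/-, beside 28.7% called and 15.5% called higher. Nos2 rose by 3.47 ± 0.45 (adjusted p = 4.96e-06), a ratio of means of 14.3 with every Terc-/- library above every wild-type library. Sod2 rose by 0.87 ± 0.19 (adjusted p = 0.00147), also without overlap. Acod1 was 1.04 ± 0.42 higher without overlap but did not pass (adjusted p = 0.0626), whereas it did with TPM as deposited (1.18, adjusted p = 0.0448). Ptgs2 (-0.13 ± 0.35), Mrc1 (-0.09 ± 0.23) and Arg1 (-0.74 ± 0.32, adjusted p = 0.0822) did not pass. Arg1 was called lower without replicate 1 of wild type (-1.0, adjusted p = 0.0204) or replicate 4 of Terc-/- (-1.13, adjusted p = 0.00888). With these 6 libraries alone neither Nos2 (adjusted p = 0.0606) nor Sod2 (adjusted p = 0.149) passed, and 91 genes were called in place of 3624. Neutrophil markers summed to 7.58 to 13.8 TPM in wild type and 41.4 to 109 TPM in Terc-/-, and macrophage markers to 19825 to 28646 and 37293 to 44689 TPM. Their part was not tested.

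The genotype difference changed with age for Ptgs2 (2.96 ± 0.49, adjusted p = 0.000595) and Arg1 (2.32 ± 0.45, adjusted p = 0.00301), beside 3.74% of genes called and 2.93% called higher. Both calls held without each of the 12 libraries in turn, but with only these 12 libraries in the fit neither passed (adjusted p = 0.115 for Ptgs2 and 0.241 for Arg1). The values were 2.17 ± 0.63 for Nos2 (adjusted p = 0.054, and 0.0476 with TPM as deposited) and 0.92 ± 0.32 for Mrc1 (adjusted p = 0.117). Nos2 was called without replicate 4 of wild type (2.62, adjusted p = 0.0152) or replicate 1 or 2 of Terc-/- at 6 months (2.40 and 2.46, adjusted p = 0.0402 and 0.0458), and Mrc1 without replicate 1 of wild type at 6 months (1.34, adjusted p = 0.000713). The female Xist pattern of wild type at 1 month enters this interaction and cannot be told apart from it. In unmarked Terc-/- Eif2s3y was 13.8 to 19.2 TPM at 1 month and 61.1 to 82 TPM at 6 months. The part of both was not tested.

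**Figure D3:**
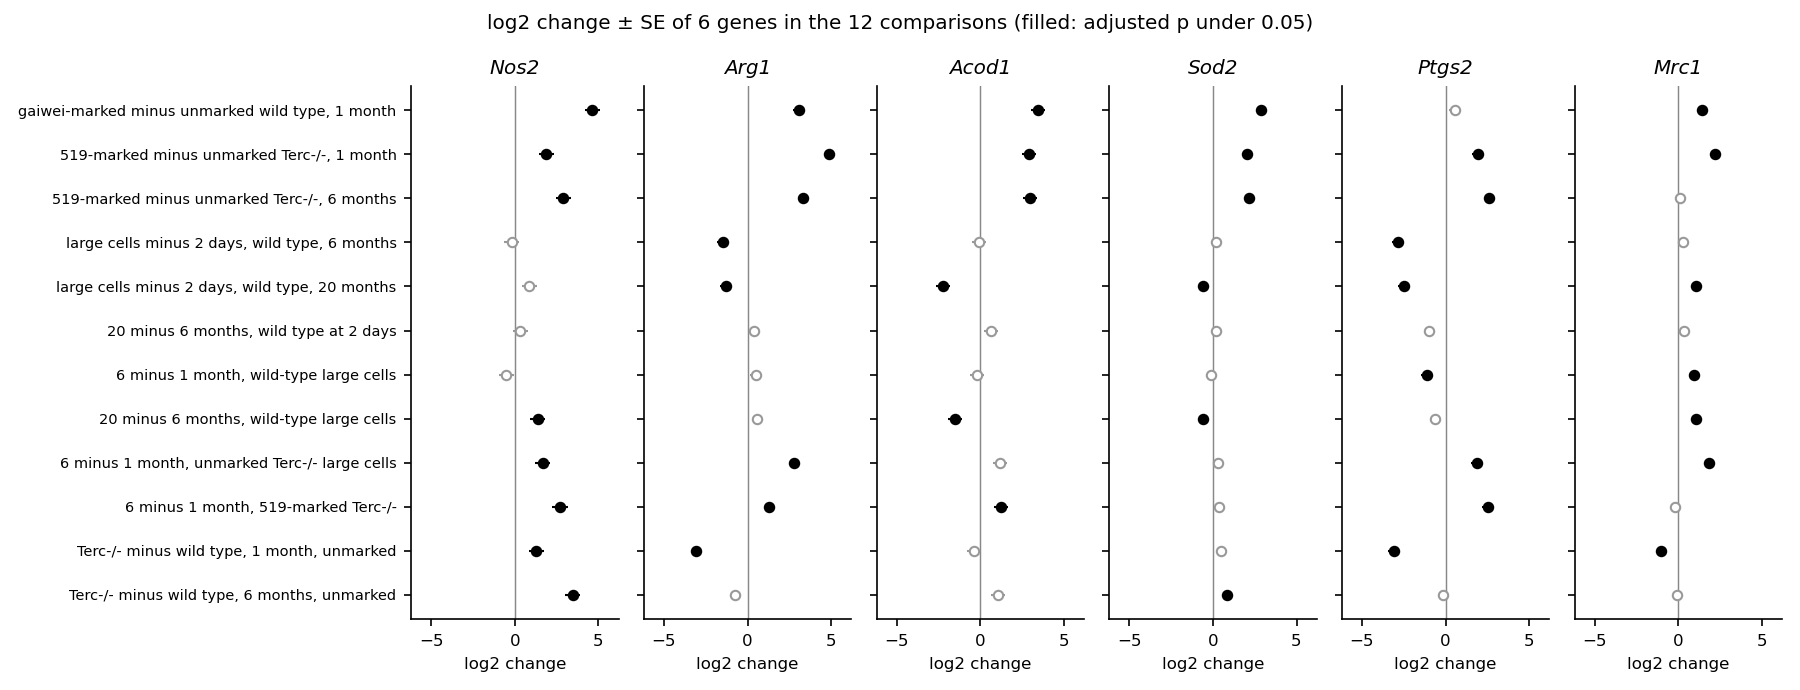
log2 change with its SE for the 6 genes tested (panels) in the 12 comparisons of 2 groups (rows); filled points passed the adjusted threshold of 0.05 and open points did not. The top 3 rows, the marked against the unmarked libraries, hold only positive values, from 0.12 for Mrc1 to 4.87 for Arg1, and the next rows down, large cells against 2 days, show Arg1 and Ptgs2 below 0.

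The other genes of each pathway were taken from lists chosen for this work, and described by counts of those tested. Scaling matters more for these counts than for the members. For the 3 comparisons of marked libraries the count with TPM as deposited, an alternative added after seeing the data, is therefore given beside them. No gene of these lists was called in opposite directions by the 2 scalings. Over all genes tested, 46.6%, 33.8% and 28.3% were called in the 3 comparisons of marked libraries, and 24.7%, 19.1% and 15.3% were called higher. These shares stand beside all list counts of those comparisons below. Of the arginine, nitric oxide and polyamine genes (15 tested), few followed Nos2 and Arg1. With the gaiwei mark and the 519 mark at 1 and 6 months 3, 3 and 4 rose and 5, 4 and 4 fell, with medians of 0.02, 0.02 and 0.05. As deposited 2, 3 and 3 rose and 10, 6 and 4 fell. Slc7a2, an arginine transporter, rose by 4.23 ± 0.25, 2.15 ± 0.25 and 3.56 ± 0.25 in these 3 comparisons, from 1.55 to 32.2 TPM in unmarked large cells to 40.2 to 351 TPM. Its largest adjusted p among them was 2.72e-07. It also rose from 1 to 6 months in Terc-/- large cells (1.06 ± 0.25, adjusted p = 0.0122, and 0.0579 as deposited) and in 519-marked libraries (2.47 ± 0.25), and was higher in Terc-/- than in wild type at 6 months (2.74 ± 0.25, adjusted p = 4.15e-08). Gch1, which makes the first intermediate of the nitric oxide synthase cofactor, rose by 1.69 ± 0.17 (gaiwei) and 1.14 ± 0.17 (519 at 6 months). Aldh18a1 and Sms, of ornithine and spermine synthesis, fell in all 3. The Sms changes were -0.90 ± 0.17, -1.06 ± 0.17 and -0.93 ± 0.17. The other arginine transporter, Slc7a1, changed by -0.90 ± 0.19 and -1.49 ± 0.19 with the gaiwei mark and the 519 mark at 1 month.

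Of the prostaglandin genes (11 tested), 6 rose in each of the 3 comparisons of marked libraries, and 1, 1 and 2 fell. Of all genes, 24.7%, 19.1% and 15.3% were called higher there. As deposited 3 rose in each, and 3, 2 and 3 fell. Ptges, the synthase that follows Ptgs2 towards prostaglandin E2, rose by 4.54 ± 0.33, 2.94 ± 0.33 and 3.49 ± 0.33, from 3.21 to 38.8 TPM in unmarked large cells to 118 to 292 TPM. The first of these stands beside a Ptgs2 change that did not pass. Ptger2, a prostaglandin E2 receptor, rose by 1.82 ± 0.14, 1.27 ± 0.14 and 1.35 ± 0.14. In large cells against 2 days Ptges fell with Ptgs2, by -1.26 ± 0.33 at 6 months (adjusted p = 0.00334) and by -2.23 ± 0.33 at 20 months (adjusted p = 8.95e-06). In the genotype comparison at 1 month, where Ptgs2 was lowest in Terc-/-, 5 of the list rose and 3 fell, beside 30.9% of all genes called.

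Of the itaconate list (14 tested), 8, 8 and 6 rose and 3 fell in each comparison of marked libraries. Of all genes, 24.7%, 19.1% and 15.3% were called higher there. As deposited 5, 4 and 4 rose and 5, 4 and 3 fell. Nfkbiz, a regulator of secondary NF-kappaB targets, rose by 2.49 ± 0.16, 2.30 ± 0.16 and 1.66 ± 0.16. Hmox1, haem oxygenase 1, rose by 3.10 ± 0.19 and 2.00 ± 0.19 with the gaiwei mark and the 519 mark at 1 month. Slc7a11, the cystine transporter, rose by 2.51 ± 0.31, 2.43 ± 0.31 and 2.29 ± 0.31. Idh2 and Sdha, enzymes of mitochondrial energy metabolism, fell in each comparison, and they were singled out after their values were seen. Idh2 changed by -0.91 ± 0.14, -1.17 ± 0.14 and -1.28 ± 0.14, and Sdha by -0.97 ± 0.13, -0.84 ± 0.13 and -0.88 ± 0.13. Of the superoxide and peroxide genes (14 tested), 10, 8 and 7 rose and 1 fell each time, the mitochondrial peroxiredoxin Prdx3 (-0.85 ± 0.12, -0.63 ± 0.12 and -0.63 ± 0.12). As deposited 8, 5 and 5 rose and 2, 2 and 3 fell. Ncf1, a subunit of the phagocyte oxidase, rose by 1.26 ± 0.12 with the gaiwei mark and by 0.98 ± 0.12 with the 519 mark at 1 month.

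Classical activation partners (20 genes, 18 tested) rose in most cases in the marked libraries: 12 rose and 3 fell with the gaiwei mark, 13 and 0 with the 519 mark at 1 month, 14 and 1 at 6 months, with medians of 2.48, 2.21 and 2.09. Of all genes, 24.7%, 19.1% and 15.3% were called higher there. As deposited 11, 12 and 12 rose and 4, 1 and 1 fell. Il6 rose by 5.84 ± 0.32, 4.29 ± 0.32 and 4.45 ± 0.32, from 0.604 to 43 TPM in unmarked large cells to 27.6 to 601 TPM. Il12a, a subunit of interleukin-12, rose by 6.23 ± 0.31 (gaiwei) and 5.12 ± 0.31 (519 at 6 months). Among the genes that fell with the gaiwei mark, named after their values were seen, were the interferon-linked Irf1 (-0.43 ± 0.12) and Cxcl10 (-0.82 ± 0.25). Of the upstream signalling genes (16 tested), 15, 11 and 10 rose and 0 fell, but as deposited 7, 4 and 5 rose and 1, 3 and 1 fell. Cd14, the lipopolysaccharide co-receptor, rose by 3.47 ± 0.28, 2.44 ± 0.28 and 2.37 ± 0.28, and Tlr2 by 1.98 ± 0.13, 1.57 ± 0.13 and 1.30 ± 0.13. Cebpb, a factor that binds C/EBP letters, rose by 3.65 ± 0.35 with the gaiwei mark. Any link between its level and that of Ptgs2 was not tested.

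Alternative activation partners (20 genes) were largely low, and 12 were tested. Retnla was listed at 0 in all 30 libraries and Cd163 reached 1.29 TPM at most. In the marked comparisons 8, 8 and 5 rose and 2, 1 and 1 fell, with medians of 0.98, 0.54 and 0.44. Of all genes, 24.7%, 19.1% and 15.3% were called higher there. As deposited 5, 4 and 3 rose and 4, 2 and 1 fell. Tgm2, transglutaminase 2, rose by 2.05 ± 0.14, 0.99 ± 0.14 and 1.71 ± 0.14, and Msr1, a scavenger receptor, by 1.74 ± 0.19, 1.41 ± 0.19 and 1.53 ± 0.19. The chemokine gene Ccl22 changed by -4.30 ± 0.44, -1.57 ± 0.44 and -2.69 ± 0.44, and it was low in the 2-day cultures as well, at 0 to 0.307 TPM. Genes of both lists thus rose in the marked libraries, with the larger median in the classical list under both scalings.

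In the other comparisons the classical partners gave mixed counts, which are given with scaled TPM only. From 1 to 6 months 6 of 18 rose and 0 fell in unmarked Terc-/- large cells, beside the 4.02% called over all genes, with Il6 at 3.65 ± 0.32, Il1b at 3.69 ± 0.51 and Socs3 at 1.53 ± 0.20. In wild-type large cells 8 fell and 2 rose from 6 to 20 months, beside 27.6% of all genes called and 16.2% called lower. Tnf (-1.74 ± 0.26) and Cxcl10 (-1.95 ± 0.25) were among those that fell. Scaling bears on this count: over all genes 41.2% of calls were higher here, and 71.2% with TPM as deposited. Between genotypes 9 fell and 1 rose at 1 month, beside 30.9% called, with Il6 at -2.03 ± 0.32 and Tnf at 1.45 ± 0.26, while 7 rose and 2 fell at 6 months, beside 28.7% called, with Il6 at 1.88 ± 0.32. The interaction of genotype and age called 7 of 18 higher and 0 lower, beside 3.74% called over all genes, Il6 by 3.91 ± 0.45 (adjusted p = 6.64e-06).

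**Figure D4:**
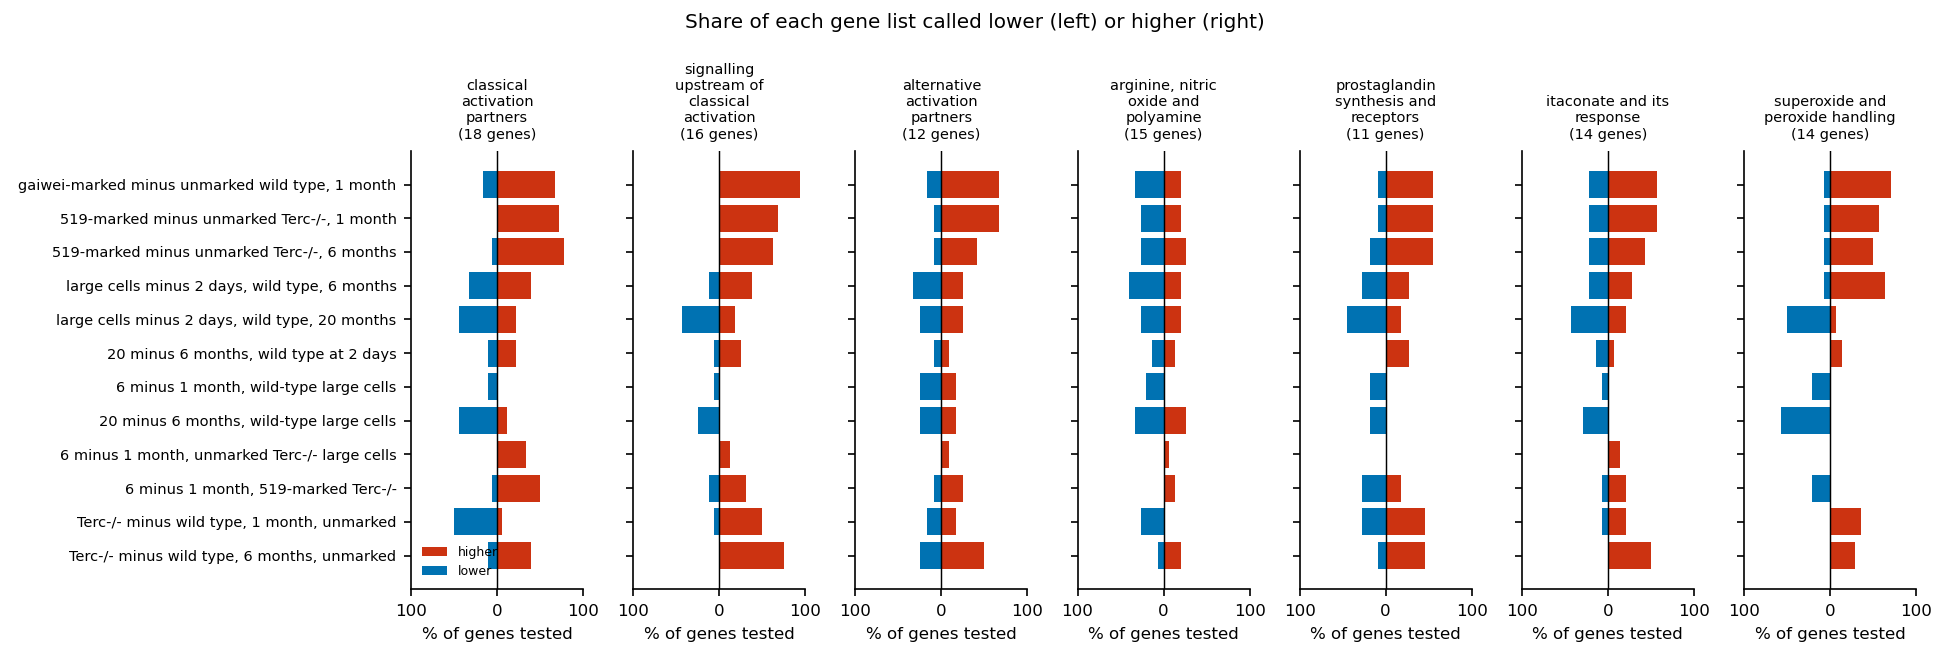
Percentage of the genes tested in each of 7 lists that were called higher (right, red) or lower (left, blue) in each of the 12 comparisons of 2 groups. In the top 3 rows the classical list has 12, 13 and 14 of 18 genes to the right and the signalling list 15, 11 and 10 of 16. With TPM as deposited these are 11, 12 and 12, and 7, 4 and 5. Of all genes tested, 24.7%, 19.1% and 15.3% were called higher in these rows.

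The closest relatives of the members in the genome did not all move with them. Of 11 such genes 5 were tested. Arg2, the mitochondrial arginase, rose with Arg1 in the marked libraries, by 2.62 ± 0.28, 2.34 ± 0.28 and 2.50 ± 0.28, from at most 8.98 TPM in unmarked large cells to 10.4 to 40.8 TPM. Arg1 remained at least 84.1 times as abundant per length as Arg2 in every marked library, and 16.4 to 53.2 times in unmarked Terc-/- at 1 month. Ptgs1, the constitutive cyclooxygenase, changed by -0.47 ± 0.17 with the gaiwei mark (adjusted p = 0.0297) and passed with neither 519 mark (0.37 ± 0.17 and -0.15 ± 0.17). It fell with Ptgs2 in Terc-/- at 1 month (-1.40 ± 0.17) and rose with it from 1 to 6 months in Terc-/- large cells (1.60 ± 0.17). The TPM of Ptgs2 per TPM of Ptgs1 was 10.8 to 14 in the 2-day cultures at 6 months, 3.74 to 5.02 at 20 months and 0.555 to 1.56 in unmarked Terc-/- large cells.

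Sod1, the cytosolic superoxide dismutase, passed in none of the 3 comparisons of marked libraries (0.64 ± 0.31, 0.16 ± 0.31 and -0.56 ± 0.31), but with TPM as deposited it was called lower with the 519 mark at 6 months (-0.87, adjusted p = 0.00156). The TPM of Sod2 per TPM of Sod1 was 0.228 to 0.656 in marked libraries and 0.0289 to 0.131 in all others. Sod3, the secreted form, rose by 1.51 ± 0.30 (gaiwei) and 1.70 ± 0.30 (519 at 6 months) from a low level. Mrc2, a receptor of collagen that stromal cells also express, changed by -2.43 ± 0.38 with the gaiwei mark and by 1.62 ± 0.38 in large cells against 2 days at 20 months, beside the stromal sums given above. Nos1 and Nos3 stayed at or below 0.557 and 0.337 TPM, and Chil1, Chil4, Chil5 and Chit1 at or below 0.67 TPM. Whether reads were shared between these relatives was not tested.

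**Figure D5:**
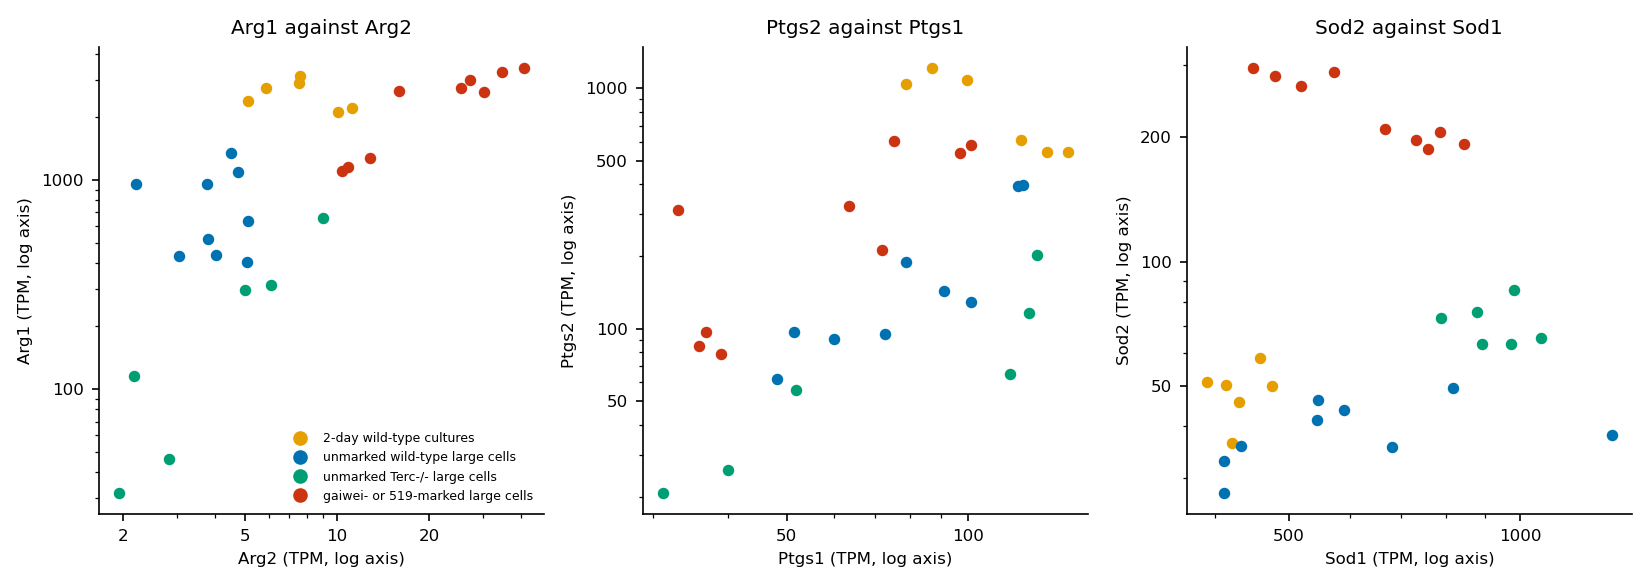
TPM of Arg1 against Arg2, Ptgs2 against Ptgs1 and Sod2 against Sod1 in the 30 libraries on log axes, coloured by kind of culture. The marked libraries lie above all others for Sod2 (187 to 294 TPM) over a range of Sod1 that the other libraries share.

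Over the 30 libraries the members formed unequal pairs, given as description since groups of libraries drive these values. Pearson's r of log2(scaled TPM + 1) was 0.94 for Acod1 and Sod2, 0.89 for Nos2 and Sod2, 0.84 for Nos2 and Acod1, and 0.80 for Arg1 and Ptgs2. Arg1 and Mrc1 reached 0.68. Nos2 and Arg1 reached 0.39, and Mrc1 with Nos2, Ptgs2, Acod1 or Sod2 did not exceed 0.26. Among the 9277 genes that averaged 5 TPM or more, the 5 most like Nos2 were Adgrl2 (r = 0.96), Slc7a2 (0.955), Clmp, Lrrc8d and Wfdc21. The 5 most like Arg1 were Ier3 (0.929), Chsy1, Ak4, Nfil3 and Rap1gds1. Those most like Ptgs2 were Tfpi2 (0.937), Lrrc8c, Cfap43, Mllt11 and Ube2j1. Acod1 was followed by Fpr1 (0.97), Kctd12, Slc15a3, Cxcl3 and Smpdl3b, and Sod2 by Cd302 (0.987), Cd14 (0.982), Smox, Ifnar2 and Lrrc25. Mrc1 had looser company, Ms4a6b (0.836), P4ha2, Bnip3, Zcchc24 and Adm.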

How the data were processed

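Poly(A)-selected RNA was sequenced in 30 libraries, and the authors deposited 5 tables that hold 1 column per library. The labels do not name the deposited unit; the columns share 1 common sum, so the values were read as TPM. The submitters' processing notes name HTSeq and mm10, with no version; the aligner and read strand are not given in the sources used here. Read depth is unknown, so no count test was made.

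TPM were scaled between libraries by a trimmed mean of log ratios (30% of ratios and 5% of levels trimmed). The 12614 genes that averaged 1 TPM or more were fitted with limma 3.58.1 (R 4.3.3) on log2(TPM + 1), with 10 group means, a trended and robust prior and Benjamini-Hochberg adjustment within each of 15 contrasts, at 0.05. The fit was tested on simulated data. Of the identifiers 45143 matched GENCODE M21 and 563 did not. Levels and correlations used Python 3.11.15 with pandas 2.3.3.

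Other genes named were up to 4 of each list with the smallest p in a comparison, the paralogs, and 5 likest genes per member. Some list genes are not reported here by name. The members and lists were chosen with earlier results of these data known. Alternatives were TPM as deposited, a pseudocount of 0.1, no filter, the replicate block, only the groups compared, and each library left out; list counts with TPM as deposited were added after seeing the data.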

Additional observations from a re-analysis of the deposited data

Results flagged for a closer look

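In 6 cases the effect of the same contrast differed between ages by an interaction term of the limma fit. For large cells against 2 days, 20 minus 6 months, Acod1 differed by -2.16 ± 0.59 (log2, SE, adjusted p = 0.00919) and Sod2 by -0.74 ± 0.27 (adjusted p = 0.0447). For Terc-/- against wild type, 6 minus 1 month, Arg1 differed by 2.32 ± 0.45 (adjusted p = 0.00301) and Ptgs2 by 2.96 ± 0.49 (adjusted p = 0.000595). Wild type at 1 month has the female Xist pattern, whose part was not tested. For 519-marked against unmarked Terc-/-, 6 minus 1 month, Arg1 differed by -1.52 ± 0.45 (adjusted p = 0.0497) and Mrc1 by -2.05 ± 0.32 (adjusted p = 0.000418). No other of the 6 genes tested passed in these 3 interactions. Of all genes tested, 25.5%, 3.74% and 4.86% were called in them, in this order. Each interaction compares 12 libraries in 4 groups, but its SE and adjusted p come from the fit of all 30 libraries. With only its 12 libraries in the fit, the adjusted p was 0.0955 for Acod1 and 0.111 for Sod2. It was 0.241 for Arg1 and 0.115 for Ptgs2 in the genotype interaction, and 0.0772 for Arg1 in the 519 interaction. None of these values passed. Mrc1 in the 519 interaction was still called, in a fit that called 1782 of all genes against 613 in the shared fit.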

How the results depend on the processing

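Depth is unknown and 3 libraries a group limit the precision. The counts of members called in the 3 comparisons of marked with unmarked libraries stayed at 5, 6 and 5 under every alternative. With TPM as deposited the count fell to 1 for 6 minus 1 month in wild type (2 as reported), the interaction of culture stage with age (2) and that of the 519 mark with age (2). Without the filter it was 1 for the same 3 and 2 for 20 minus 6 months in wild-type large cells (4 as reported). A pseudocount of 0.1 gave 1 for the interaction of the 519 mark. With only the groups compared in the fit, which leaves 4 residual degrees of freedom for a pair of groups, it was 3 for 20 minus 6 months at 2 days (0 as reported), 1 for the 519 interaction, and 0 for both wild-type age comparisons of large cells, the genotype at 6 months and the other interactions.

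The replicate block uses numbers shared in the titles, and the libraries did not bear these out in most comparisons. In no comparison with 3 shared numbers did all pairs correlate above 0.1. With 2 shared numbers the pairs correlated at 0.21 and 0.25 for the gaiwei mark. They correlated at 0.16 and 0.32 from 1 to 6 months in unmarked Terc-/-. In each other comparison with 2 shared numbers the lower pair was at 0.05 or less. With the block, the count for 20 minus 6 months at 2 days was 1 (Ptgs2, -1.21, adjusted p = 0.00552). Under it Nos2 from 1 to 6 months in Terc-/- (adjusted p = 0.0507) and Sod2 from 6 to 20 months in wild type (0.0579) were not called, and Sod2 at 1 month (0.0333) and Acod1 at 6 months (0.0452) were called between genotypes; no other count left the range of 1.5 times. Leaving out each library gave 5 to 5, 6 to 6 and 5 to 5 (marked), 2 to 3 and 4 to 5 (large cells against 2 days), 0 to 1 (20 minus 6 months at 2 days), 1 to 2 and 2 to 4 (wild-type ages), 3 to 4 and 3 to 4 (Terc-/- ages), 3 to 5 and 2 to 3 (genotype), and 1 to 3, 2 to 3 and 1 to 2 (interactions). Leaving out replicate 2 of wild type at 6 months where its group is not compared was chosen after seeing the data.

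Signs turned only for values not called. With TPM as deposited these were Ptgs2 with gaiwei (-0.02), Mrc1 with 519 at 6 months (-0.17), Mrc1 and Sod2 in large cells against 2 days at 6 months (-0.09 and -0.24), and Mrc1 and Ptgs2 between genotypes at 6 months (0.04 and 0.00). When a library was left out, ranges that crossed 0 were -0.63 to 0.14 for Nos2, -0.13 to 0.57 for Mrc1, -0.37 to 0.07 for Acod1 and -0.03 to 0.28 for Sod2 in large cells against 2 days at 6 months, -0.30 to 0.05 for Sod2 from 1 to 6 months in wild type, -0.37 to 0.33 for Mrc1 and -0.56 to 0.28 for Ptgs2 between genotypes at 6 months, -0.09 to 0.44 for Arg1 in the stage interaction and -0.08 to 0.26 for Acod1 in the 519 interaction. The cause was not tested.

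Over all genes, the number called moved by over 1.5 times with only the groups compared: from 6299 to 1925 (large cells against 2 days, 6 months), 2213 to 4689 (20 minus 6 months at 2 days), 1207 to 26 and 3482 to 162 (wild-type large cells, 6 minus 1 and 20 minus 6 months), 507 to 155 and 3004 to 5676 (Terc-/-, unmarked and 519), 3900 to 2589 and 3624 to 91 (genotype, 1 and 6 months), and 3220 to 2048, 472 to 60 and 613 to 1782 (interactions of stage, genotype and the 519 mark), the last 277 with TPM as deposited. As deposited, the share of calls that were higher moved from 50.1% to 23.4% (large cells against 2 days, 6 months), from 53% to 65.6% (519-marked ages) and from 43.8% to 63.2% (stage interaction). Leaving out 1 library moved these numbers to 1288 (20 minus 6 months at 2 days, without replicate 3 of 20 months), to 570 and 4343 (wild type, 6 minus 1 month, without replicate 3 of 1 month and replicate 1 of 6 months), to 2164 and 6341 (20 minus 6 months, without replicates 2 and 1 of 6 months), to 1758 and 5204 (519-marked ages, without replicate 2 of 1 month and replicate 2 of wild type at 6 months), to 2403 (genotype at 6 months, without replicate 1 of Terc-/-), and in the interactions to 5179 (stage) and 1591 (genotype) without replicate 1 of wild-type large cells at 6 months, to 275 (genotype) without replicate 3 of wild type at 1 month, and to 294 and 1533 (519 mark) without replicate 4 of Terc-/- at 1 month and replicate 2 of wild type at 6 months.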
